A study of Mus musculus with 2 samples.

Results

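The genes described here are 10 messages in 2 groups: 6 markers of the epicardium, the cell layer that covers the heart (Wt1, Tcf21, Upk1b, Upk3b, Lrrn4 and Msln), and 4 simple keratins, the filament proteins of single-layered epithelia (Krt7, Krt8, Krt18 and Krt19). They were taken by symbol from a gene table of 12557 entries, and all 10 were found, each with 1 entry. The set was chosen by gene role and selected on the mutant to control ratios of this table, in which Krt19 is among the highest, so the ratios below are a description and carry no test. The table compares sorted sinoatrial node cells of ICR mouse embryos. Both groups had Hcn4-CreERT2, which makes a recombinase that needs tamoxifen in cells using the pacemaker channel gene Hcn4, and the Rosa-tdTomato reporter, which marks recombined cells red. The control group was Isl1+/+ and the mutant group Isl1f/f, in which the recombinase recombines the floxed Isl1 gene. Embryos were exposed to tamoxifen from E10.5 and nodes were taken 36 hours later, at a stage labelled E12.5. Nodes of 1 genotype were pooled, cells bearing CD31 were taken out with beads, and red cells were sorted, giving 1 library per genotype. The read totals to which the values are scaled, worked out from the values themselves, were 110117186 (control) and 119018888 (mutant).

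With 1 library in each group there is no replicate error, so no difference below could be tested, and each is given by its size. Levels are in RPKM, read numbers scaled to exon length and to the library total. Being per length, they are set side by side between genes, but which exons were counted for each gene could not be checked. Each fold has an exact 95% interval that covers the counting of reads alone. They do not cover differences between embryos, pools or libraries. Isl1 stood at 7.65 RPKM in control cells and 1.52 RPKM in mutant cells, 19.9% of control. In such pooled cells, fewer cells of a type and less RNA per cell cannot be told apart.

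The epicardium is a mesothelium, a flat epithelium that spreads over the heart from the proepicardium, next to the venous pole where the node forms. Some of its cells leave the layer, become mesenchymal and give rise to fibroblasts and vascular smooth muscle. Simple keratins build filaments only as pairs of a type I and a type II protein. Krt18 and Krt19 are type I genes, Krt7 and Krt8 are type II genes, and the best known pair is Krt8 with Krt18. Mesothelial cells make all of these, and Krt19 is a common marker of such layers, so the question put to the table was whether Krt19 goes with the epicardial genes or with Krt8 and Krt18.

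The Krt8 and Krt18 promoters are shown because this pair is the yardstick for Krt19. They are the RefSeq entries of build GRCm38.p6, which is not the mm9 build of the gene table, from 250 bases before the annotated start. Capitals mark TATAA on either strand, the core of the TATA box that positions the start of transcription. The Krt8 promoter (minus strand, chr15:102004339-102004592) runs 4 bases past the annotated start, where its TATAA lies, and the Krt18 promoter (plus strand, chr15:102027966-102028215) ends at the start.
Krt8: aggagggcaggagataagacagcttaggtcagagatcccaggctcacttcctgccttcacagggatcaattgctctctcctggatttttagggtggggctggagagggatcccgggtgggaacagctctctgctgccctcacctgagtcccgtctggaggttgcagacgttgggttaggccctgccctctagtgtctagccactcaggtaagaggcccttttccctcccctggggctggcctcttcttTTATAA
Krt18: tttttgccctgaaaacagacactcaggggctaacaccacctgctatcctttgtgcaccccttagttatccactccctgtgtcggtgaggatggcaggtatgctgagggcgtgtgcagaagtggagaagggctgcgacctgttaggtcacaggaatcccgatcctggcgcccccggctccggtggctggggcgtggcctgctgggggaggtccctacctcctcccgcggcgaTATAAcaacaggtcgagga

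The 2 stretches have a similar base composition, with 57.1% G or C in Krt8 and 60.4% in Krt18. Entries were matched for 6 of the 10 genes (Tcf21, Upk3b, Lrrn4, Krt7, Krt8 and Krt18), and those of Wt1, Upk1b, Msln and Krt19 were not matched. Within the 300 bases of each entry, TATAA on either strand was found in Krt8 and Krt18 and in 24.9% of 32851 promoters. In Krt18 it lies from 19 to 15 bases before the start. GGGCGG, the GC box bound by Sp1, was found on either strand in Krt7 and in 35.7% of promoters. GGAATG, the site of TEAD factors, was found on either strand in Lrrn4 and Upk3b and in 14.7% of promoters. TGANTCA (AP-1), ACGTG (the hypoxia response core) and TAATTA (a homeodomain core) were each looked for on both strands and were in 0 of the 6 entries, against 7.81%, 19.6% and 5.29% of promoters. A match is a string of letters, not a shown binding site.

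How far reads of 1 keratin could be counted for another was measured on GENCODE transcripts. The longest identical runs between coding sequences within each keratin type are given here in the direction of the message.
Krt7 and Krt8 (type II): cagcagaacaagatgctggagaccaagtgg
Krt18 and Krt19 (type I): gccacctaccgc

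The type II run has 30 bases and the type I run 12 bases, both well under the read length of 90 bases. No window of 90 bases in a Krt7, Krt18 or Krt19 transcript occurs in a transcript of another gene. Krt8 differs in this, since 19.6% of its windows also occur in Krt8-ps or Gm36026, so its reads are the least certain of the 4. Among the epicardial markers, Msln shares 0.5% of its windows with other genes and the others share 0. None of the 10 genes overlaps another gene of the table in its mm9 coordinates.

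Taken as a group, the epicardial markers stood at nearly the same summed level in both libraries, 58.8 RPKM in the control and 59.2 RPKM in the mutant. Most of that sum was Upk1b and Upk3b, with 44.8 and 49.7 RPKM together, while the other 4 markers came to 13.96 RPKM in control cells and 9.55 RPKM in mutant cells. Below that sum the 6 genes went different ways. Upk1b was higher in mutant cells, Upk3b was level, and Wt1, Tcf21, Lrrn4 and Msln were lower, with a median log2 ratio of -0.29. Across all 12446 symbols of the table the median was -0.22, and 32.9% were higher and 67.1% lower, so 4 of 6 genes lower is close to the share in the table at large.

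Wt1 (chromosome 2, 104966686 to 105013773) encodes a zinc finger transcription factor that marks the epicardium and is needed for its cells to leave the layer. Its level was 2.62 RPKM in control cells and 2.398 RPKM in mutant cells. This is 1.09-fold lower, with a counting interval that includes no difference (0.946 to 1.26, with no fewer than 389 and 385 reads). Tcf21 (chromosome 10, 22537085 to 22539934) encodes a basic helix-loop-helix factor of the epicardial cells that become fibroblasts. It was the least abundant of the 10 genes, at 1.45 RPKM in control cells and 1.02 RPKM in mutant cells, 1.42-fold lower (interval 1.14 to 1.78). The direction of Wt1 is not settled by these values: its log2 ratio was -0.13 as deposited and 0.22 with the trend of ratios with level removed. That of Tcf21 was -0.51 as deposited and -0.06 with the trend removed.

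The uroplakins are membrane proteins first known from the bladder lining and are also made by mesothelium. Upk3b (chromosome 5, 136514366 to 136521173) was the most abundant of the 10 genes in both libraries, at 33.1 RPKM in the control and 33.5 RPKM in the mutant. Its fold of 1.01 has an interval that includes no difference (0.987 to 1.04, with no fewer than 9981 and 10941 reads). Upk1b (chromosome 16, 38773297 to 38800316), a tetraspanin gene, stood at 11.7 RPKM in control cells and 16.2 RPKM in mutant cells. At 1.38-fold higher (interval 1.31 to 1.45) it was the epicardial marker with the highest ratio, and the difference between these uroplakin genes exceeds the counting error of both.

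Lrrn4 and Msln encode proteins of the mesothelial cell surface, a leucine-rich repeat protein and mesothelin. Lrrn4 (chromosome 2, 132694041 to 132706627) went from 6.27 RPKM in control cells to 3.48 RPKM in mutant cells. This was 1.80-fold lower (interval 1.69 to 1.92), the lowest ratio of the 10 genes. Msln (chromosome 17, 25885559 to 25891323) stood at 3.62 and 2.66 RPKM, a level 1.36-fold lower in mutant cells (interval 1.22 to 1.51). The surface markers of one cell layer therefore ran from a log2 ratio of -0.85 for Lrrn4 to 0.46 for Upk1b, with Msln at -0.44 and Upk3b at 0.02.

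**Figure D1:**
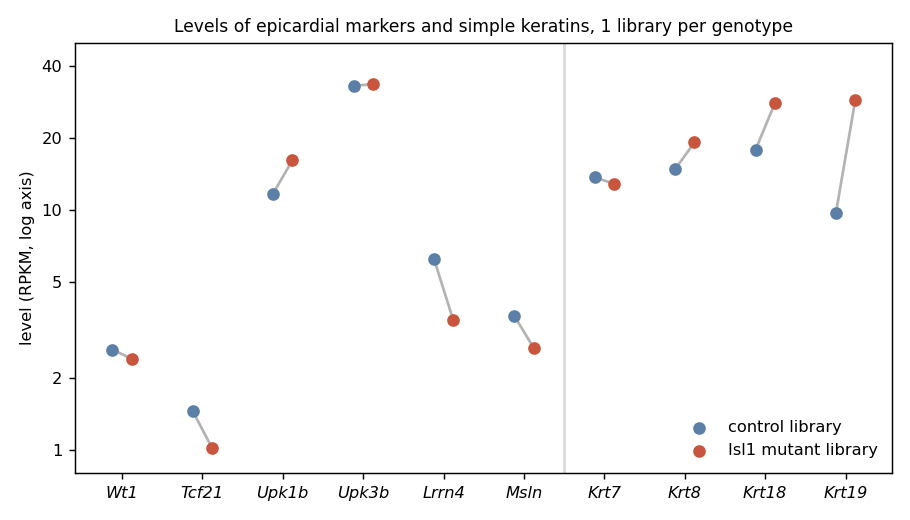
Level of each gene in RPKM (log axis) in control cells (blue) and the Isl1 mutant library (red), with a grey line joining the values of 1 gene; epicardial markers are left of the vertical line and keratins right of it. Krt19 moves from the lowest keratin in control cells (9.77 RPKM) to the highest in mutant cells (28.8 RPKM), while Upk3b stays near 33 RPKM.

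The keratins differed more. Their summed level was 56.2 RPKM in control cells and 88.8 RPKM in mutant cells, and the order of the 4 genes changed. In the control library Krt18 was highest, followed by Krt8, Krt7 and Krt19. In the mutant library Krt19 was highest, followed by Krt18, Krt8 and Krt7.

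Krt19 (chromosome 11, 100002124 to 100009979) encodes the smallest keratin, a type I protein that lacks the tail domain of the others. Its level was 9.77 RPKM in control cells and 28.8 RPKM in mutant cells, 2.95-fold higher (interval 2.79 to 3.12, with no fewer than 1689 and 5388 reads). By ratio it was number 28 of 6343 symbols that reach 5 RPKM in at least 1 library. It was the only one of the 10 genes at least 2-fold different on the log2(RPKM + 1) scale at that level. Of the 10 genes, 7 reach 5 RPKM in at least 1 library (Upk1b, Upk3b, Lrrn4 and the 4 keratins), and 1 of these 7 was past 2-fold upwards and 0 downwards. Over all symbols at that level 1.01% were past 2-fold upwards and 2.68% downwards. Since the ratios served to choose the genes, nothing is read from these counts.

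Krt18 (chromosome 15, 101858647 to 101862457), the type I partner of Krt8, went from 17.9 RPKM in control cells to 27.9 RPKM in mutant cells. This was 1.56-fold higher (interval 1.49 to 1.64, with no fewer than 2745 and 4632 reads). Krt8 (chromosome 15, 101827142 to 101834773), its type II partner, went from 14.8 RPKM to 19.2 RPKM, 1.29-fold higher (interval 1.21 to 1.38). The 2 genes lie 23874 bases apart on opposite strands, and Krt18 is the one type I gene that sits with the type II genes. Krt7 (chromosome 15, 101241474 to 101260744), the other type II gene, was at 13.7 RPKM in control cells and 12.9 RPKM in mutant cells, 1.06-fold lower (interval 1.01 to 1.12). Its log2 ratio of -0.09 turned to 0.03 with the level trend removed and with upper quartile scaling. Both type I genes were thus higher by more than either type II gene.

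The balance of the types changed with it. Krt18 and Krt19 together came to 27.7 RPKM in control cells, against 28.5 RPKM for Krt7 and Krt8 together, a ratio of 0.969. In the mutant library the sums were 56.8 RPKM and 32.1 RPKM, a ratio of 1.77. The ratio of type I to type II messages was therefore 1.83 times that of control (counting interval 1.73 to 1.93, by a normal approximation on the log scale). For the pair of Krt18 and Krt8 alone the ratio went from 1.21 to 1.46, a factor of 1.21 (interval 1.11 to 1.31). For Krt19 over Krt7 it went from 0.713 to 2.24, a factor of 3.14 (interval 2.92 to 3.375). Krt19 held 17.4% of the summed keratin level in control cells and 32.5% in mutant cells.

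**Figure D2:**
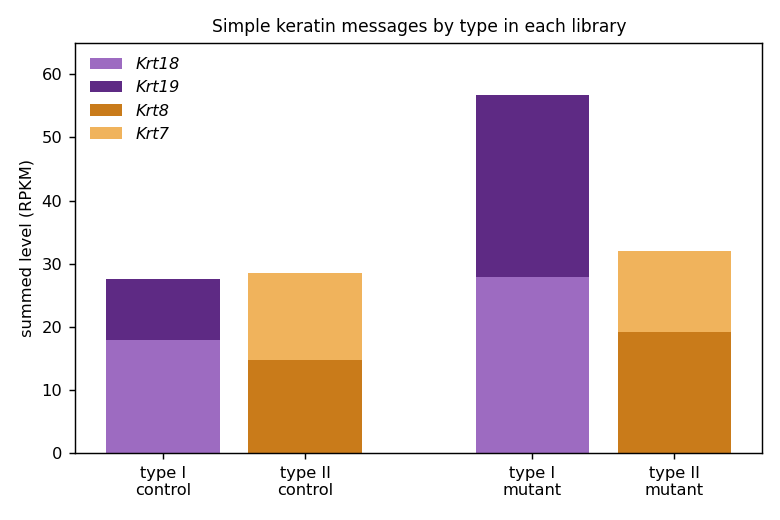
Summed level (RPKM, linear axis from 0) of the type I keratins Krt18 and Krt19 and of the type II keratins Krt8 and Krt7 in each library, with 1 coloured block per gene. The 2 bars are near equal in control cells (27.7 and 28.5 RPKM), and in mutant cells the type I bar reaches 56.8 RPKM against 32.1 RPKM, with Krt19 as the block that differs most.

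Set against the other 9 genes, Krt19 did not have the ratio of either group. Its log2 ratio was 1.56, that of Krt18 0.64 and that of Krt8 0.37. Krt19 thus shared its direction with Krt8 and Krt18 but lay 1.05 above their mean of 0.51. It lay 1.85 above the median of the epicardial markers, and 1.10 above Upk1b, the nearest of them. The ratio of Krt19 was 1.89 times that of Krt18 (counting interval 1.76 to 2.03), 2.28 times that of Krt8 (2.09 to 2.49) and 2.14 times that of Upk1b (1.99 to 2.31). By ratio, Krt18 is the gene nearest to Krt19, followed by Upk1b and Krt8.

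The step between the 2 groups is itself not clean. Upk1b, an epicardial marker, had a log2 ratio of 0.46, which falls between Krt8 and Krt18 and just below their mean. Krt7, a keratin, had a ratio of -0.09, which falls between Upk3b and Wt1. Of the 10 genes, 5 were higher and 5 lower, with Krt19, Krt18, Upk1b, Krt8 and Upk3b in the first set. With 1 pair of libraries, each gene has 1 ratio, and whether genes vary together could not be measured.

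Within each library, Krt19 can also be read against the others as a ratio of levels. Krt19 over Upk3b was 0.295 in control cells and 0.86 in mutant cells. Krt19 over Krt18 was 0.546 in control cells and 1.03 in mutant cells, so the 2 type I messages were at about equal level there. Krt19 over Wt1 was 3.73 in control cells and 12.02 in mutant cells.

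Ratios in this table depend on level, so each gene was placed among the genes within 1.2-fold of its own geometric mean level. Since the ratios served to choose the genes, these places describe them and are no test. Among 808 such genes, 1 had a higher ratio than Krt19. Among 624 genes of like level, 10 (1.60%) had a higher ratio than Krt18. For Krt8 this share was 8.56% and for Upk1b 6.80%, and both lay inside the central 90% of their neighbours. Krt7 stood near the middle, with 49.1% of its neighbours higher. The markers of low level sat among neighbours that were themselves lower in mutant cells: the median log2 ratio was -0.34 around Wt1, -0.43 around Tcf21 and -0.34 around Msln. Against these neighbours Wt1 was above the middle (36.1% of them higher), Tcf21 and Msln were near it (54.2% and 57.9%), and Lrrn4 was in the lower part (88.6%).

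**Figure D3:**
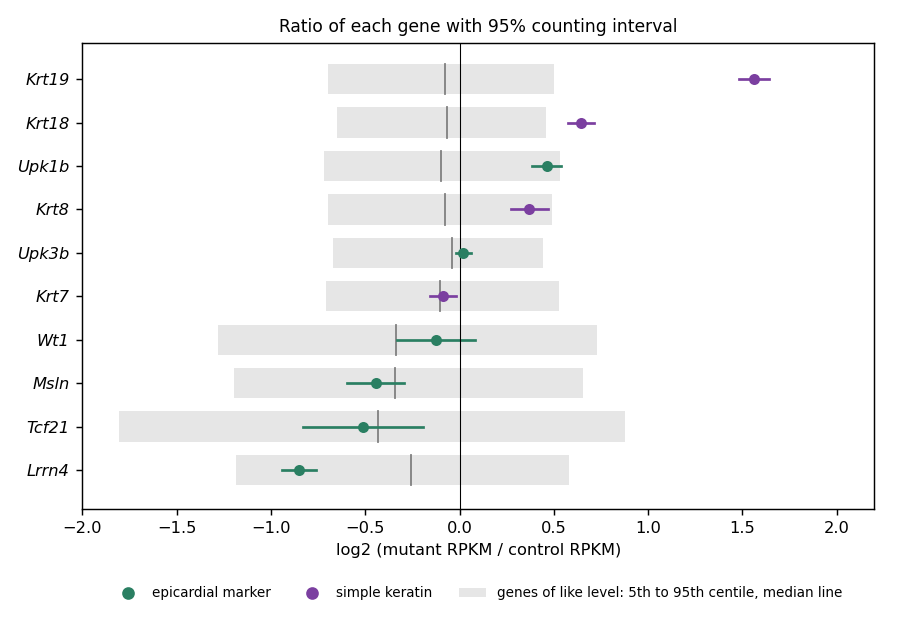
Log2 ratio of mutant to control RPKM for each gene (points, green for epicardial markers and purple for keratins) with its 95% counting interval (line), over a grey bar from the 5th to the 95th centile of genes of like level and a grey tick at their median. Krt19 (1.56) and Krt18 (0.64) lie beyond the grey bar, while Krt7 (-0.09), Krt8 (0.37) and the epicardial markers, from Lrrn4 (-0.85) to Upk1b (0.46), lie within it. The genes were chosen with these ratios known, so a place beyond the bar is no test.

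The protein-coding genes whose pair of levels in these 2 libraries was nearest to that of Krt19 were Ckm, the muscle creatine kinase gene, Sbk2, a protein kinase gene, and P4ha2, a collagen prolyl hydroxylase subunit gene. Ckm stood at 10.53 RPKM in control cells and 27.3 RPKM in mutant cells, at a distance of 0.13 log2 units from Krt19. Sbk2 went from 9.503 to 23.9 RPKM and P4ha2 from 8.43 to 23.3 RPKM. None of them is an epicardial marker or a keratin.

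A further list held other genes of the epicardium and of mesothelium. Of 16 listed genes 10 were in the table, of which 9 were lower and 1 higher, with a median log2 ratio of -0.53, beside 67.1% lower and a median of -0.22 for all symbols. Only 4 of them reach 5 RPKM in at least 1 library, so the size rule could apply to these alone. Of the 4, 0 were 2-fold different, beside 1.01% higher and 2.68% lower of all genes at that level. Tbx18, a T-box gene of the epicardium and the sinus venosus, went from 4.77 to 3.81 RPKM, and Aldh1a2, which makes retinoic acid, from 22.4 to 18.5 RPKM. Sema3d, a guidance molecule gene of the proepicardium, was 2.16-fold lower (4.93 to 2.28 RPKM). Calb2, the gene of the mesothelial calcium-binding protein calretinin, was 3.24-fold lower on few reads (at least 39 and 13, interval 1.69 to 6.62). Muc16, which encodes a mucin that binds mesothelin, was at 1.15 RPKM in control cells and at the fill value that stands for no reads in mutant cells, at least 38.2-fold lower with a floor of 3 reads. Aldh1a1, another retinoic acid synthesis gene, was the exception at 2.23-fold higher (1.01 to 2.27 RPKM). Of the 10 genes, 6 stay under 5 RPKM in both libraries, the range in which the neighbours of Wt1 and Msln had medians of -0.34. The 4 that reach 5 RPKM were all lower too, with log2 ratios of -0.27 (Aldh1a2), -0.51 (Gpm6a), -0.54 (Pdpn) and -0.65 (Efemp1). The part of level in these ratios was not tested. Muc16 and Calb2 reach the 1 RPKM needed for an entry in control cells alone, so they could only be lower.

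A list of 11 genes covered the move from epithelium to mesenchyme and the mesenchyme that epicardium forms. Of these 10 were measured and 9 were lower, with a median log2 ratio of -0.70, beside 67.1% lower and a median of -0.22 for all symbols. Pdgfra, the receptor gene of epicardium-derived fibroblasts, was 6.59-fold lower (9.53 to 1.45 RPKM) and Pdgfrb, that of mural cells, 2.70-fold lower (6.73 to 2.49 RPKM). Of the list, 7 genes reach 5 RPKM in at least 1 library, so the size rule could apply to these alone. By that rule Pdgfra and Pdgfrb were the 2 genes at least 2-fold lower, beside 2.68% of all genes at that level. At least 2-fold higher were 0, beside 1.01%. Snai1 reaches the 1 RPKM needed for an entry in control cells alone, so it could only be lower. Snai2, a repressor of epithelial junction genes, was 2.15-fold lower (4.22 to 1.96 RPKM), and Postn, a matrix gene, 2.12-fold lower (6.77 to 3.19 RPKM). Vim, the filament gene of mesenchyme, was the 1 gene not lower, at 278 and 279 RPKM. It belongs to the same filament superfamily as the keratins.

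Genes of simple epithelia other than keratins were few in the table. Of 16 listed genes 4 were measured, and Spint2 alone reached 5 RPKM. All 4 were lower, with a median log2 ratio of -1.99, beside 67.1% of all symbols. Elf3, Cldn7 and Esrp2 reach the 1 RPKM needed for an entry in control cells alone. They could therefore only be lower, and nothing is read from this median. By the size rule 0 were 2-fold lower, beside 2.68% of all genes at 5 RPKM or more. Elf3, an epithelial ETS factor gene, was at 2.21 RPKM in control cells and 0.157 RPKM in mutant cells (14.1-fold lower, interval 9.95 to 20.4, with no fewer than 455 and 35 reads). Cldn7, a tight junction gene, went from 1.30 to 0.297 RPKM and Esrp2, an epithelial splicing factor gene, from 1.498 to 0.418 RPKM. Spint2, a protease inhibitor gene, was 2.08-fold lower (9.18 to 4.41 RPKM). Cdh1 and Epcam, the defining surface genes of such epithelia, had no entry in this table, whose every gene reaches 1 RPKM in at least 1 library, and were not measured here.

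Of 13 other keratin genes listed, 5 were in the table, all at levels under 2 RPKM, with a median of -1.10 and 4 of them lower, beside 67.1% of all symbols. Krt10, Krt15 and Krt222 reach the 1 RPKM needed for an entry in control cells alone, and Krt20 in mutant cells alone. Their directions were therefore fixed by that floor. Krt15 is the neighbour of Krt19, 4861 bases away on the same strand. It stood at 1.45 RPKM in control cells (at least 151 reads) and at the fill value in mutant cells, at least 54.4-fold lower with a floor of 3 reads. Krt14, 54497 bases away on the other side, was at 1.07 and 1.00 RPKM (fold 1.06, interval 0.871 to 1.30). The genes next to Krt19 therefore did not share its ratio. Krt20, a type I keratin of gut and bladder epithelium, was 3.52-fold higher (0.455 to 1.60 RPKM, interval 2.71 to 4.62), and Krt10 and Krt222 were 2.295-fold and 2.14-fold lower. These 5 genes together came to 5.70 RPKM in control cells and 3.85 RPKM in mutant cells, below any 1 of the 4 simple keratins.

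Keratin filaments attach to desmosomes, junctions that heart muscle shares with epithelia. Of 17 listed genes of desmosomes, linkers and other filaments 14 were in the table, and 10 reach 5 RPKM in at least 1 library. Of the 14, 5 were higher and 9 lower, with a median of -0.12, and 0 were at least 2-fold different by the size rule. This is near the share of all symbols that were lower, 67.1%, and the 2-fold shares of all genes at 5 RPKM or more were 1.01% higher and 2.68% lower. Dsp, the gene of the desmosomal anchor desmoplakin, was at 10.4 and 9.66 RPKM. Dsc2, a desmosomal cadherin gene, was 1.58-fold lower (18.1 to 11.5 RPKM), and Pkp2, the plakophilin of heart muscle, 1.48-fold lower (9.93 to 6.70 RPKM). Lmna, the gene of the nuclear lamins A and C, was 1.45-fold lower, and Sync, a partner gene of muscle filaments, 1.29-fold lower. Des, which encodes the muscle filament desmin, was 1.29-fold higher, at 269 and 346 RPKM.

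**Figure D4:**
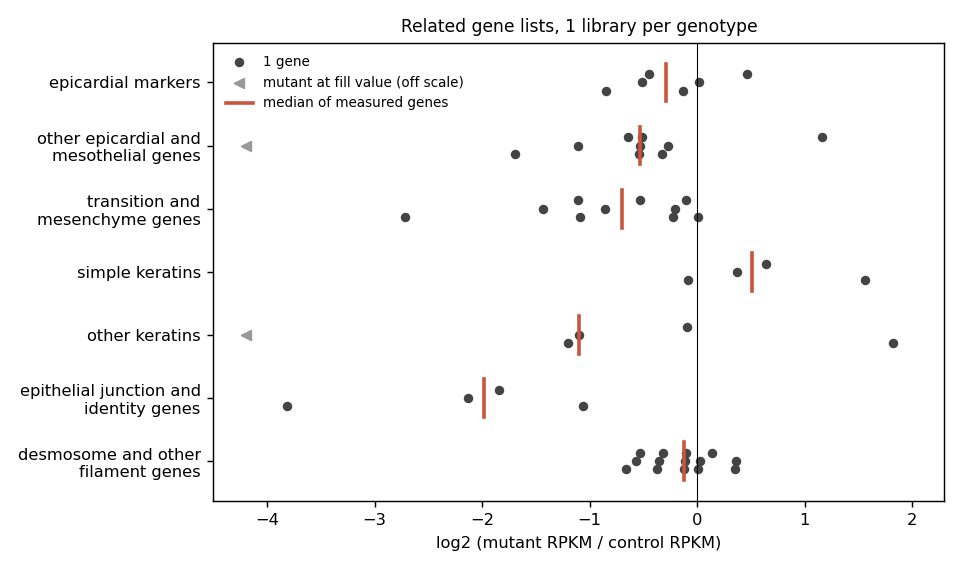
Log2 ratio of mutant to control RPKM for each measured gene of 7 lists (black points, 1 gene each), with the median of the list as a red bar and grey triangles for the 2 genes, Muc16 and Krt15, whose mutant value is a fill value beyond the axis. The simple keratins have a median of 0.51 over 4 genes. They were chosen with these ratios known, so nothing is read from their place among the lists. The medians of the other lists run from -0.12 for desmosome and filament genes to -1.99 for epithelial junction and identity genes. In this last list Elf3, Cldn7 and Esrp2 have an entry through the control library alone, so nothing is read from its median.

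Other cell types of the dissected tissue differed between the libraries too. Markers of pacemaker cells, the labelled cell type, were all measured (4 of 4, Isl1 among them) and came to 34.4 RPKM in control cells and 14.2 RPKM in mutant cells in sum. Summed over their listed markers, heart muscle genes came to 6681 RPKM in control cells and 8515 RPKM in mutant cells (5 of 5 measured, from 21.5 to 2535 RPKM in control cells). Fibroblast and cushion genes (6 of 6) came to 412 and 194 RPKM, endothelial genes (3 of 4, Cdh5 having no entry) to 16.1 and 8.52 RPKM, macrophage and blood genes (4 of 4) to 36.0 and 5.91 RPKM and erythroid genes (4 of 4) to 267 and 41.0 RPKM. Genes of the liver (3 of 3), an organ that makes Krt8 and Krt18, came to 14.4 and 4.296 RPKM, and of 6 markers of foregut and lung epithelium 0 had an entry. The liver sum was mostly Afp (10.6 to 2.98 RPKM), with Alb lower (3.49 to 0.272 RPKM) and Ttr higher (0.274 to 1.05 RPKM). Alb and Ttr each reach the 1 RPKM needed for an entry in 1 library alone. The part of these cell types in the keratin ratios was not tested.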

How the data were processed

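Libraries of sorted sinoatrial node cells, 1 per genotype, were made with a SMARTer cDNA kit from 10 ng of RNA and read in pairs of 90 bases, per the labels' protocols. Per the submitters' processing notes, Trim Galore, FastQC, TopHat2, Bowtie2 and build mm9 were used. Software for the table itself was not given in the sources used here. Deposited values were identified as RPKM from 284 small RNA genes. In these, value times length is a whole number of reads within 0.01 (284 control, 276 mutant, and otherwise a fill worth 1.56 reads). Such genes have 1 exon, so this cannot show which exons of other genes were counted. The read totals of both libraries were worked out from the same steps. The authors' log2 column matches the log2 ratio of both RPKM columns (largest difference 1.89e-07). Their signed fold, a deposited score, was left aside.

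Reads per gene are the smallest whole numbers that fit both values and a whole exon length, so true numbers may be multiples and intervals too wide. The 95% interval of a fold is the Clopper-Pearson interval of the mutant share of the reads, and those of a ratio of ratios use a normal approximation. Mates and PCR copies are not independent. Printed folds have no pseudocount. The size rule asks for 2-fold on log2(RPKM + 1), which understates low genes, and 5 RPKM in at least 1 library. For a symbol with several entries the highest was kept. Named are the 10 genes, Isl1, the 3 genes nearest to Krt19 and, per list, those past the size rule and up to 4 with the largest ratio at 1 RPKM. Tbx18, Aldh1a2, Gpm6a, Pdpn, Efemp1, Snai1, Vim, Des, Dsp, Krt14, Afp, Alb and Ttr were added after their values were seen. Members and lists were chosen with earlier results of these data known. List medians are the same with fill values at their bound. Python 3.11.15, pandas 2.3.3 and scipy 1.17.1 were used, and scripts were tested on simulated data. Alternatives were other pseudocounts, scalings, floors and thresholds.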

Additional observations from a re-analysis of the deposited data

How the results depend on the processing

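With 1 library per genotype, no library could be left out, and no alternative here replaces replicates. No paired analysis was possible because each group has 1 library. Krt19 was higher in mutant cells under every alternative run, with a log2 ratio between 1.196 and 1.68. Its difference from the mean of Krt8 and Krt18 could move only with the pseudocount. Removing the level trend shifted these genes alike, and the difference was 1.055 with and without it. The difference of Krt19 from the epicardial median could move with the pseudocount or the level trend. Both differences stayed above 0 there. Centring and upper quartile scaling shift all genes alike and each gene has 1 entry, so those settings say nothing about these differences. Krt19 minus the mean of Krt8 and Krt18 was 0.79 with a pseudocount of 5 RPKM. Krt19 minus the epicardial median was 1.66 with a pseudocount of 1 RPKM (1.655), 1.27 with 5 RPKM and 1.66 (1.661) with the level trend removed. The epicardial median was -0.0712 with a pseudocount of 5 RPKM and -0.029 with the level trend removed. At a threshold of 1.5-fold, 2 members were higher (Krt18 and Krt19) and 1 lower (Lrrn4). Of 70 single values of the 10 genes under an alternative, 25 moved by more than their counting interval and 3 changed sign: Wt1 to 0.22 with the level trend removed, and Krt7 to 0.03 with that setting and with upper quartile scaling. The direction of Wt1 and Krt7 depends on the setting. A pseudocount cannot change the sign of a ratio, for these genes or for Krt19. Summing the entries of a symbol left every value as it was, since each gene has 1 entry. Only centring, upper quartile scaling and the level trend could therefore change a sign. The shift between libraries was -0.12 (log2) by the upper quartile and -0.07 by centring, and taking it out raised every ratio by that much. Depth limits Tcf21 (at least 195 and 148 reads) and Wt1 most.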

Other observations

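The neighbours of the chromosome 15 keratin pair, chosen after their values were seen, were Eif4b, a translation initiation factor gene 41747 bases beyond Krt18, at 60.3 RPKM in control cells and 49.6 RPKM in mutant cells, and Spryd3, 84319 bases beyond Krt18, at 5.60 and 8.22 RPKM. Between them Tenc1 was at 1.63 and 1.39 RPKM. Within 100000 bases of Krt18 the genes thus had ratios of either sign. Around Msln, in a gene-dense part of chromosome 17, genes were likewise named after their values were seen. The lowest ratios there were those of Haghl (22.6 to 13.4 RPKM) and Wdr90 (4.18 to 1.73 RPKM), while Stub1 was at 78.3 and 80.5 RPKM. Log2 ratios ran from -1.27 for Wdr90 to 0.34 for Rhot2, with Jmjd8 (-0.11), Narfl (0.06) and Wdr24 (0.08) nearly level.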
